A study of Homo sapiens with 12 samples.

Results

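The trefoil factors TFF1, TFF2 and TFF3 were followed through 12 samples of PC-3 cells, an androgen-independent line established from a prostate adenocarcinoma. The members were the probes, other than control probes, whose RefSeq transcript mapped to one of these 3 genes, which gave 5 of the 34127 probes of the array. TFF1 was read by probe A_24_P322771, TFF2 by probe A_23_P57364 and TFF3 by probes A_23_P393099, A_33_P3334305 and A_24_P289208, each printed as a single spot. All 5 passed the filter on dim probes. The trefoil factors were selected on the difference of TFF1 and TFF2 between PIM1 and control cells, so that difference is described here without a test. The tests below compare samples of the other groups, which came from the same stable lines.

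Trefoil factors are small secreted peptides that carry trefoil domains, loops of the chain held together by disulfide bonds between cysteines. They are made by mucus-secreting epithelia, above all in the stomach and intestine, where they are released together with mucins and help the surface layer to close after injury. TFF1, first described as pS2, is a classic estrogen-induced transcript of breast cancer cells and is typical of the gastric surface mucus cells. TFF2 is the spasmolytic peptide of the gastric neck glands, and TFF3, the intestinal trefoil factor, is best known from goblet cells.

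The study asked how the kinase PIM1 and the transcription factor NFATC1 act together on gene expression in PC-3 cells. Control cells carried an empty pcDNA3.1-based vector and PIM1 cells the same vector with human Pim-1. Both stable lines were grown from pools of G418-selected cells that had also received a Td-Tomato plasmid as a fluorescent marker, so every group shared the marker and the selection. WT and MM cells carried the empty stable vector and expressed, from a transient transfection, either wild-type NFATC1 or a multi mutant, the latter with its PIM1 target serines and threonines changed to alanine, and PIM1 + WT and PIM1 + MM cells combined the same NFATC1 forms with stable PIM1. Each of the 6 groups had 2 samples, and the sources used here do not say whether these came from separate transfections, so the spread between them may be technical. With 1 pool for each stable vector, the effect of PIM1 and that of the pool cannot be told apart.

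The samples lay on 6 two-colour arrays on 2 slides, with replicate 1 of each group on the first slide and replicate 2 on the second. The dye was fixed by group, Cy3 for control, WT and PIM1 + WT cells and Cy5 for the other 3 groups, so comparisons between these sets also compare dyes. Median raw intensities ran from 86 to 139 over the Cy3 channels and from 176 to 318 over the Cy5 channels, and the scanner software flagged 56.9% to 69% of spots per channel as well above background. The epithelial markers KRT8, KRT18 and EPCAM and the mesenchymal filament gene VIM were well above background in all 12 samples and KLK3 (prostate-specific antigen) in 0. The fibroblast markers DCN and LUM were well above background in 0 of 12 samples and COL1A1 in 12. Of the leukocyte markers PTPRC and CD14 were in 12 and CD3E in 3. A gene was counted, here and in the lists below, where any of its probes was well above background. PTPRC had 5 probes, and its gene value, the median of its probes, ran only from 6.43 to 6.77. None of the 4 fibroblast and 3 leukocyte markers was called in a comparison of stable PIM1 below, where 1.27% and 0.872% of all genes were. The PIM1 probe differed by 0.25 on the log2 scale between PIM1 and control cells, by -0.23 in PIM1 + WT against WT cells (limma, adjusted p = 0.136) and by 0.15 in PIM1 + MM against MM cells (adjusted p = 0.338). Whether that probe lies within the transfected sequence is not known here, so stable PIM1 is taken from the labels. The study itself reports overexpression of PIM1 in the array samples by real-time qPCR, which was not re-examined here.

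All levels below are log2 normalized intensities of 1 probe, and differences between groups are on the same log2 scale. TFF1 was at 10.22 and 10.18 in the control samples, at 9.82 and 9.81 in WT cells and at 9.70 and 9.74 in MM cells. In the lines with stable PIM1 it was at 12.93 and 12.87 in PIM1 cells, at 12.70 and 12.63 in PIM1 + WT cells and at 12.76 and 12.80 in PIM1 + MM cells. The 6 samples with stable PIM1 and the 6 without it did not overlap, and the lowest of the former stood 2.41 above the highest of the latter.

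TFF2 was at 10.50 and 10.49 in control samples, at 10.34 and 10.36 in WT cells and at 9.99 and 9.93 in MM cells. It was at 13.17 in both PIM1 samples, at 13.31 and 13.32 in PIM1 + WT cells and at 13.21 and 13.17 in PIM1 + MM cells. Again the samples fell into 2 sets by the stable vector, with a gap of 2.66 between them. Neither gene was near the detection limit: the raw intensity of TFF1 was 7.42 to 112 times the local background and that of TFF2 8 to 161 times, with both well above background in all 12 samples and 0 saturated spots on the arrays.

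TFF3 was much dimmer, and its 3 probes differed from one another. The brightest, A_23_P393099, was well above background in all 12 samples, at 1.37 to 4.89 times the local background. It was at 7.06 and 7.14 in control samples, at 7.03 and 7.07 in WT cells and at 6.80 and 7.02 in MM cells. In the lines with stable PIM1 it was at 8.05 and 8.07 in PIM1 cells, at 8.10 and 8.18 in PIM1 + WT cells and at 8.19 and 8.31 in PIM1 + MM cells. The same 2 sets of 6 samples were separated at this probe too, by a gap of 0.91.

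At probe A_33_P3334305, TFF3 was between 6.39 and 6.51 without stable PIM1 and between 6.78 and 7.08 with it, which left a gap of 0.27. This probe was not well above background in the control and MM samples, so a difference against those groups is a lower bound. Probe A_24_P289208 was well above background in 0 of 12 samples, ran from 5.95 to 6.26, and its 2 sets of samples overlapped. The value of TFF3 as a gene is the median of its probes and equalled that of A_33_P3334305 in every sample, so the 3 probes are given one by one below.

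**Figure D1:**
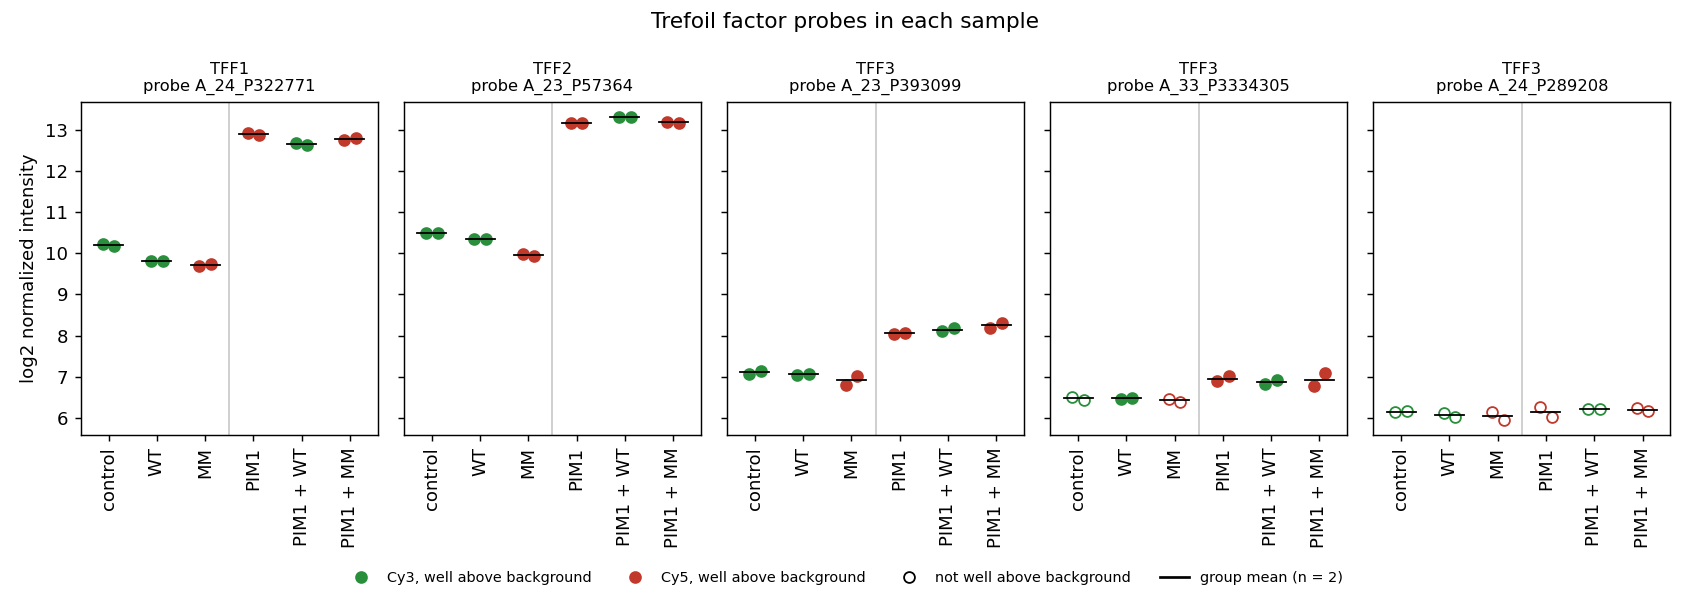
Log2 normalized intensity (vertical axis) of the 5 trefoil factor probes in each of the 12 samples, by group; green points are Cy3 and red points Cy5 channels, open points are not well above background, and horizontal bars are means of 2 samples. TFF1 and TFF2 sit between 9.70 and 10.50 in the groups without stable PIM1 and between 12.63 and 13.32 in those with it, while probe A_24_P289208 of TFF3 stays at 5.95 to 6.26 throughout.

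The order of the 6 group means differed between TFF1, TFF2 and the brightest TFF3 probe only among the groups with stable PIM1. TFF1 was highest in PIM1 cells (12.90 ± 0.04, SD, n = 2), followed by PIM1 + MM (12.78 ± 0.03), PIM1 + WT (12.66 ± 0.05), control (10.20 ± 0.03), WT (9.82 ± 0.01) and MM cells (9.72 ± 0.03). The samples of neighbouring groups in this order did not overlap, although control, WT and PIM1 + WT cells were read in Cy3 and the others in Cy5. TFF2 was highest in PIM1 + WT cells (13.31), followed by PIM1 + MM (13.19), PIM1 (13.17), control (10.50), WT (10.35) and MM cells (9.96), with 0.02 between PIM1 + MM and PIM1 cells, whose lower samples both read 13.17. For TFF3 at A_23_P393099 the order was PIM1 + MM, PIM1 + WT, PIM1, control, WT and MM cells, and the samples of control and WT cells overlapped.

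The comparison that drew attention to these genes, PIM1 against control cells, gave a difference of 2.70 for TFF1 (2.71 on the first slide and 2.69 on the second), or 6.5-fold. The difference of TFF2 was 2.67 (2.66 and 2.68), or 6.37-fold. These were the largest and the second largest increases among the 25473 genes measured, of which 0.51% were called higher, and nothing is read from that rank, since it is how the genes were noticed. TFF3 differed by 0.96 at A_23_P393099, by at least 1.39-fold at A_33_P3334305 and by -0.01 at A_24_P289208. Control and PIM1 cells were read in different dyes. Centring each channel on its median, in place of quantile normalization, gave 2.05 for TFF1 and 2.01 for TFF2.

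Stable PIM1 was next compared in cells that also expressed WT NFATC1, with both groups in Cy3 and neither in the comparison above. TFF1 and TFF2 were higher in PIM1 + WT than in WT cells by 7.2-fold and 7.79-fold. On the log2 scale TFF1 rose by 2.85 (SE 0.0558, limma, adjusted p = 1.53e-08), by 2.87 on the first slide and 2.82 on the second. TFF2 rose by 2.96 (SE 0.0517, adjusted p = 1.19e-08), by 2.97 and 2.96 on the slides, and had the largest increase of all genes, while TFF1 stood at place 3. Calls required a Benjamini-Hochberg adjusted p below 0.05 over the 25473 genes together with a log2 difference of at least 1 in either direction. By this rule 2 of the 3 trefoil genes were called higher, against 0.813% of all genes. These groups came from the same stable pools as PIM1 and control cells. A difference between the pools would recur here, so these p-values, places and counts are not independent of the selection.

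TFF3 as a gene differed by 0.40 (SE 0.0976, adjusted p = 0.0144), below the fold threshold. Its probes did not behave alike: A_23_P393099 rose by 1.09 (SE 0.082, limma over probes, adjusted p = 2.37e-05), or 2.13-fold, with 1.07 and 1.11 on the slides. A_33_P3334305 differed by 0.40 (adjusted p = 0.0144) and A_24_P289208, the one at background in all samples, by 0.16 (adjusted p = 0.253). Counted by probe, 3 of the 5 were called higher, against 0.87% of the 31486 probes tested. With the scanner software's processed signal, which is both background-subtracted and dye-normalized, A_23_P393099 rose by 1.74 and A_33_P3334305 by 1.58 (adjusted p = 0.00123), while normexp background correction gave 1.08 and 0.41. The difference at A_33_P3334305 lost the p threshold with median centring (adjusted p = 0.127) and without WT replicate 1 (0.0846), WT replicate 2 (0.064) or PIM1 + WT replicate 2 (0.0998).

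In cells that expressed MM NFATC1, both groups were read in Cy5, and the same 3 probes were called. TFF1 rose by 3.06 in PIM1 + MM over MM cells (SE 0.0558, limma, adjusted p = 1.19e-08), or 8.35-fold, with 3.06 and 3.07 on the slides. TFF2 rose by 3.23 (SE 0.0517, adjusted p = 7.24e-09), or 9.41-fold, with 3.22 and 3.25 on the slides. They had the second largest and the largest increase of all genes, and again 2 of 3 trefoil genes were called higher, against 0.495% of all genes. This comparison too is of the same stable pools and is not independent of the selection. TFF3 rose by 1.34 at A_23_P393099 (SE 0.082, adjusted p = 1.4e-05), or 2.52-fold, while A_33_P3334305 differed by 0.51 (adjusted p = 0.00681), or at least 1.4-fold over the dim MM samples, and A_24_P289208 differed by 0.15 (adjusted p = 0.32). Counted by probe, 3 of 5 were called higher, against 0.502% of all probes, and the processed signal gave 2.22 for A_23_P393099 and 1.5 for A_33_P3334305 (adjusted p = 0.00265). Other settings put A_33_P3334305 below that bound, at 0.29 with normexp (adjusted p = 0.109) and 0.42 with median centring (adjusted p = 0.849), and its adjusted p was 0.0543 with only the groups compared and 0.0516 without MM replicate 2.

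**Figure D2:**
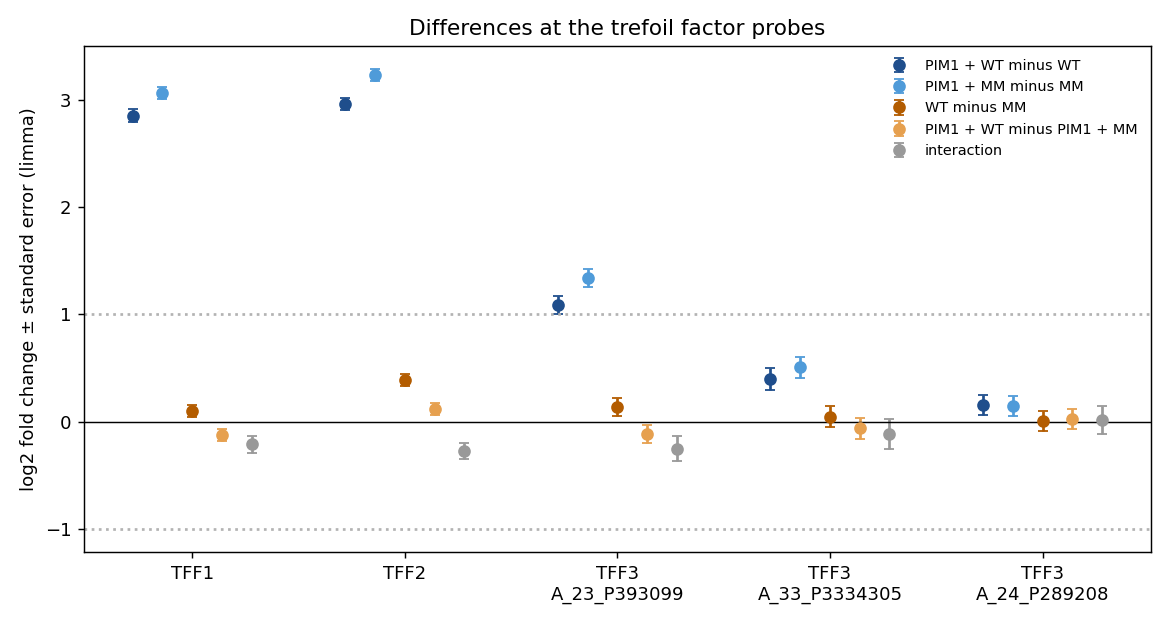
Log2 fold change ± standard error from the limma fit over probes (vertical axis) at the 5 trefoil factor probes for the 5 tested comparisons; dotted lines mark the fold threshold of 1 in either direction. The differences with stable PIM1 lie at 2.85 to 3.23 for TFF1 and TFF2 and at 1.09 and 1.34 for the brightest TFF3 probe, whereas the differences between NFATC1 forms and the interaction all lie within 0.39 of 0.

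The trefoil factors differed much less between the NFATC1 forms. Of the 2 probes of NFATC1 itself, A_24_P258846 averaged 7.77 with WT and 11.30 with MM, and 7.97 and 11.95 where stable PIM1 was added. A_23_P300150 averaged 8.28, 8.39, 7.19 and 7.34 in that order. The first thus read far more transcript with MM than with WT and the second did not. In control cells they averaged 6.87 and 8.29. Between WT and MM cells TFF1 differed by 0.10 (SE 0.0558, limma, adjusted p = 0.583), TFF2 by 0.39 (SE 0.0517, adjusted p = 0.02, 0.35 and 0.43 on the slides) and TFF3 at A_23_P393099 by 0.14 (adjusted p = 0.578). TFF2 passed the p threshold, as did 0.793% of all genes, but not the fold threshold, and its adjusted p ran from 0.0024 to 0.211 over the alternative settings. Median centring gave larger differences of 0.50 for TFF1 (adjusted p = 0.202) and 0.82 for TFF2 (adjusted p = 0.162). By the call rule 0 of 3 trefoil genes differed, against 0.0118% of all genes. An unadjusted p below 0.05 was found for 1 of them and for 3037 of the 25473 genes. WT and MM cells were read in different dyes and differed in NFATC1 signal at A_24_P258846, so form, amount and dye cannot be told apart here.

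Between PIM1 + WT and PIM1 + MM cells TFF1 differed by -0.12 (limma, adjusted p = 0.212), TFF2 by 0.12 (adjusted p = 0.154) and TFF3 at A_23_P393099 by -0.11 (adjusted p = 0.454). None of the 3 genes was called, against 0.345% of all genes. An unadjusted p below 0.05 was found for 1 of them and for 7256 of the 25473 genes. The sign for TFF1 turned to 0.14 with median centring, and TFF2 differed by 0.24 with loess and Aquantile, past the p threshold (adjusted p = 0.0112), and by 0.37 with median centring (adjusted p = 0.462). Against control cells, which share samples with the comparison that singled these genes out, WT cells differed by -0.39 for TFF1 (-0.40 and -0.37 on the slides) and by -0.15 for TFF2 (-0.16 and -0.13), given as values without a test. PIM1 + MM cells differed from PIM1 cells by -0.12 for TFF1, 0.02 for TFF2 and 0.19 for TFF3 at A_23_P393099.

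Whether the effect of stable PIM1 depended on the NFATC1 form was tested by the interaction, in which a constant dye difference of a gene cancels. The NFATC1 signal at A_24_P258846 differed with the form, so form and amount cannot be told apart in this test. The increase was smaller with WT than with MM by -0.21 for TFF1 (SE 0.079, limma, adjusted p = 0.213) and by -0.27 for TFF2 (SE 0.0732, adjusted p = 0.0973), with the same sign on both slides. In the fit over probes the 95% interval of the interaction ran from -0.40 to -0.03 for TFF1, from -0.45 to -0.10 for TFF2 and from -0.51 to 0.01 for TFF3 at A_23_P393099, before adjustment. None of the 3 was called, against 0.051% of all genes. An unadjusted p below 0.05 was found for 2 of them and for 4064 of the 25473 genes. For TFF2 the adjusted p fell below 0.05 in 2 settings, with the array as a random block (0.0234) and with the stricter filter on dim probes (0.0482), at the same size of -0.27.

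Trefoil peptides are packed and secreted with mucins, and the genes of that route were examined as a list. Of 17 mucins and mucus partners, 14 were tested and 1 rose in each comparison of stable PIM1, against calls in either direction for 1.27% of all genes under WT and 0.872% under MM NFATC1. It was AGR2, a disulfide isomerase of the endoplasmic reticulum that mucin folding needs. AGR2 rose by 1.52 in PIM1 + WT over WT cells (SE 0.116, limma, adjusted p = 2.64e-05) and by 1.32 in PIM1 + MM over MM cells (adjusted p = 0.000102), from means of 11.12 in WT and 11.38 in MM cells to 12.64 and 12.71. Median centring gave 1.22 and 1.23 and ended both calls (adjusted p = 0.12 and 0.335). The list had medians of 0.20 and 0.11, against 0 over all genes, and 10 of 14 lay above 0 in each.

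The tested mucin genes themselves were not called. MUC1, a membrane mucin, differed by 0.23 and 0.11, MUC6, a gel-forming mucin of the gastric glands, by 0.30 and 0.23, and MUC2, the intestinal gel-forming mucin, by 0.25 and 0.34. MUC4, a membrane mucin, differed by 0.37 (adjusted p = 0.02) and 0.49 (adjusted p = 0.00792), below the fold threshold. MUC5B, a gel-forming mucin of the airways, lay on the other side of 0, at -0.12 (adjusted p = 0.35) and -0.41 (adjusted p = 0.00738). The number of list members called moved to 3 under MM NFATC1 with the processed signal, which called 817 genes in all, in place of 222. It moved to 2 under WT NFATC1 with the brightest probe per gene, which called 370 genes in all, in place of 323. FCGBP, a mucus protein that binds TFF3, differed by 0.42 (adjusted p = 0.182) and 0.54 (adjusted p = 0.101). Of 5 receptors reported for trefoil factors, 0 of 5 were called in either comparison, near the 1.27% and 0.872% of all genes. Their differences were -0.29 to 0.20 under WT and -0.16 to 0.26 under MM NFATC1. CXCR4, one of them, was well above background in 1 of 12 samples.

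Among 20 transcription factors known to act on trefoil genes, 16 were tested. SPDEF, an ETS factor of goblet cell differentiation, rose by 1.17 in PIM1 + WT over WT cells (SE 0.0827, limma, adjusted p = 1.83e-05) and differed by 0.24 in PIM1 + MM over MM cells (adjusted p = 0.0723). Its group means were 10.51 (WT), 10.42 (MM), 11.68 (PIM1 + WT) and 10.67 (PIM1 + MM). Median centring gave 0.90 under WT NFATC1 and ended that call (adjusted p = 0.168). The other 15 tested factors were not called in either comparison, against calls for 1.27% and 0.872% of all genes. FOXA1 and FOXA2, forkhead factors of foregut and prostate epithelium, differed by -0.11 and 0.04 under WT and by -0.05 and -0.22 under MM NFATC1. SOX2, which acts in foregut development, differed by -0.94 (adjusted p = 7.65e-05) and -0.86 (adjusted p = 0.000218), below the fold threshold. The list's median was 0.01 and 0.05, against 0 over all genes. The processed signal called 2 members under WT and 1 under MM NFATC1, where it called 1040 and 817 genes in all, in place of 323 and 222.

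TFF1 is best known as an estrogen target, and ESR1, the gene of estrogen receptor alpha, differed by -0.04 and 0.00 in the comparisons of stable PIM1. By any of its 3 probes ESR1 was well above background in all 12 samples, but its group means were only 6.17 to 6.31. The lowest signal well above background averaged 6.26 in WT and 6.39 in MM cells, which limits what the ESR1 differences can show. Of 15 estrogen-response genes, all tested, IGFBP4, which binds insulin-like growth factors, rose by 1.41 in PIM1 + WT over WT cells (SE 0.402, limma, adjusted p = 0.0286), a call lost when any of the 4 samples compared was left out (adjusted p = 0.0978 to 0.12). Under MM NFATC1 it differed by 0.75 (adjusted p = 0.245). MYB, a transcription factor, fell by 1.07 under WT (adjusted p = 6.7e-05) and by 1.08 under MM NFATC1 (adjusted p = 0.000116). GREB1, an early estrogen-induced gene, differed by -0.02 and 0.06, with group means of 6.42 to 6.52, also close to background. The list thus had 2 calls under WT and 1 under MM NFATC1, where 1.27% and 0.872% of all genes were called. Its median was 0.10 and 0.14, against 0 over all genes.

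Of 12 genes typical of gastrointestinal epithelium, 10 were tested and 0 were called in either comparison, near the 1.27% and 0.872% of all genes. At any fold, 3 under WT and 5 under MM NFATC1 had an adjusted p below 0.05 (limma), against 27.4% and 19.4% of all genes. The 10 tested genes lay between 0.03 and 0.42 under WT and between -0.14 and 0.67 under MM NFATC1. Their medians were 0.13 and 0.17. The processed signal called 2 in each comparison, where it called 1040 and 817 genes in all, in place of 323 and 222. Of the 6 fixed markers of mucous and intestinal epithelium, 4 were tested and 0 were called, against the same shares of all genes. MUC2, MUC6 and the intestinal keratin gene KRT20 were well above background in all 12 samples, and CDX2, which defines intestinal identity, in 2. For MUC2 this means any of 4 probes, and its gene value ran only from 6.55 to 7.11.

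**Figure D3:**
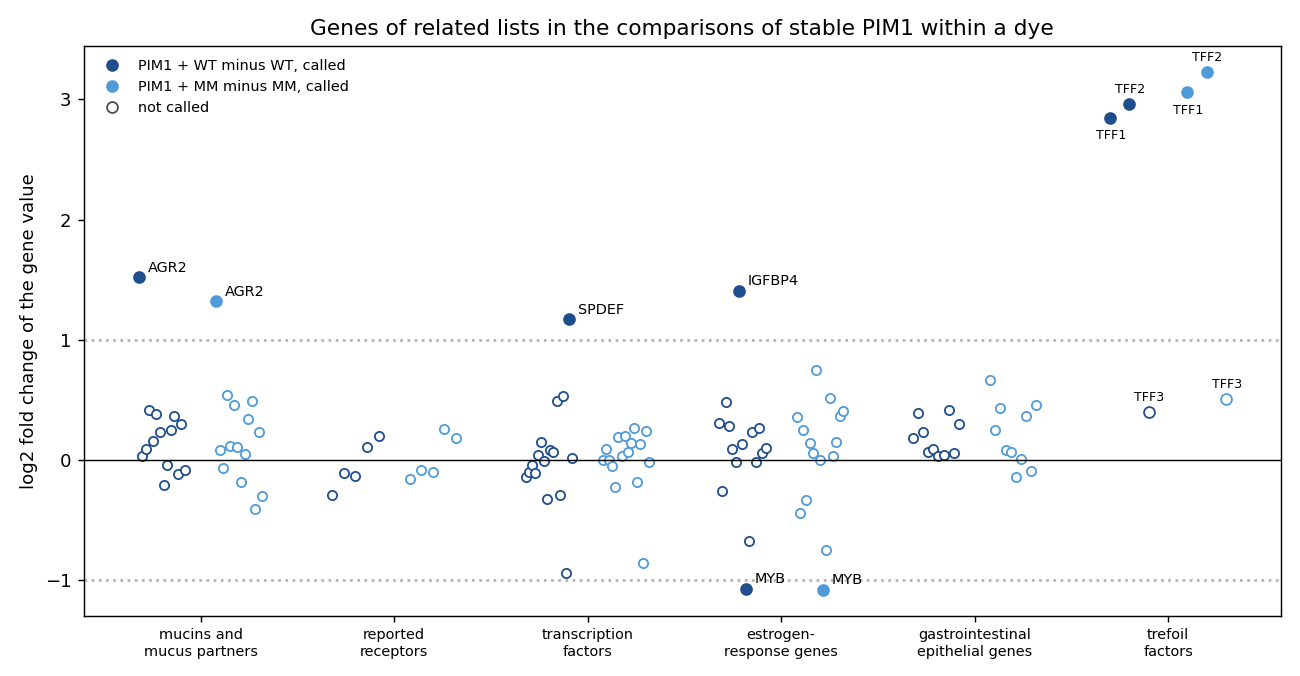
Log2 fold change of the gene value (vertical axis) of each tested gene of the 5 lists and of the 3 trefoil factors, in PIM1 + WT minus WT (dark blue) and PIM1 + MM minus MM (light blue); filled points passed both thresholds and dotted lines mark the fold threshold of 1. TFF1 and TFF2, at 2.85 to 3.23, lie above every gene of the lists, of which AGR2 with 1.52 and 1.32 comes closest in each comparison.

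The 3 trefoil genes lie next to one another on chromosome 21 in the RefSeq annotation of GRCh38.p14, in the order TFF3, TFF2, TFF1, with 0 other protein-coding genes between them. The 5 nearest protein-coding genes with a probe on each side were PRDM15, C2CD2, ZBTB21, UMODL1 and ABCG1 beyond TFF3, and TMPRSS3, UBASH3A, RSPH1, SLC37A1 and PDE9A beyond TFF1. None of these 10 was called in either comparison of stable PIM1, near the 1.27% and 0.872% of all genes. In each, 4 had an adjusted p below 0.05 at any fold (limma), as did 27.4% and 19.4% of all genes. ABCG1, a sterol exporter and the nearest neighbour of TFF3, differed by 0.73 (SE 0.0592, limma, adjusted p = 3.86e-05) and 0.45 (adjusted p = 0.000928). TMPRSS3, a serine protease gene next to TFF1, differed by 0.43 and 0.31 and was well above background in 1 of 12 samples. SLC37A1 differed by 0.51 and 0.49, ZBTB21 by -0.60 and -0.30, and the median of the 10 was 0.14 and 0.17.

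**Figure D4:**
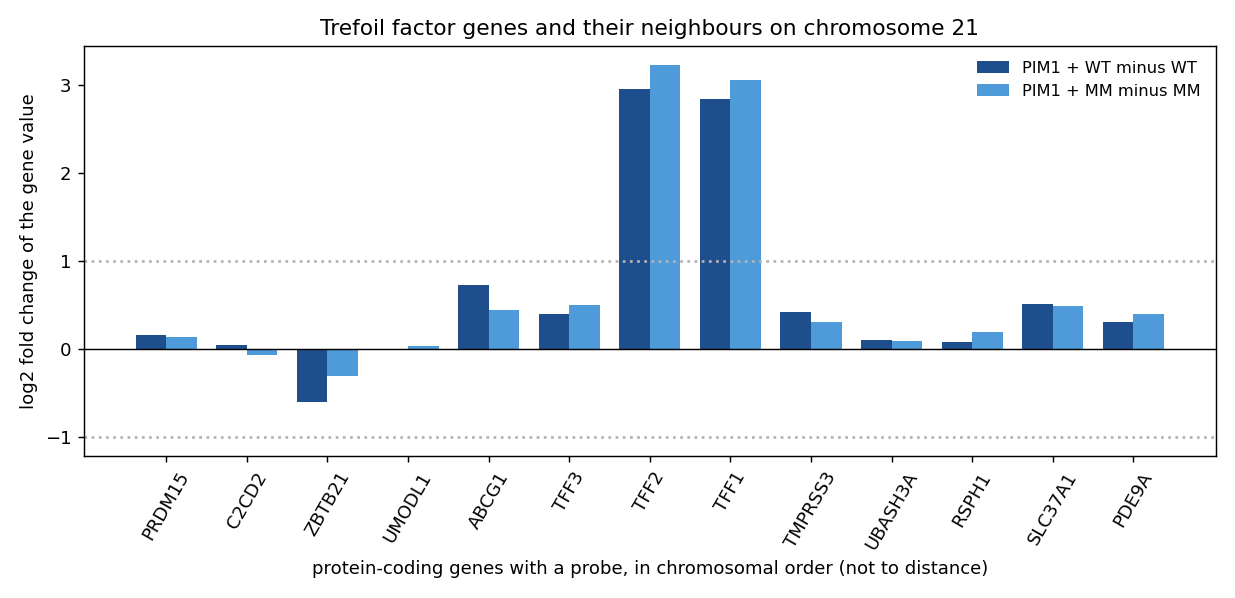
Log2 fold change of the gene value (vertical axis, bars from 0) for the 3 trefoil genes and their 10 nearest measured protein-coding neighbours on chromosome 21, in chromosomal order and not to distance, for PIM1 + WT minus WT (dark blue) and PIM1 + MM minus MM (light blue). The bars of TFF1 and TFF2 reach 2.85 to 3.23, and no neighbour exceeds the 0.73 of ABCG1.

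The genes whose levels over the 12 samples most resembled those of TFF1 were found by Pearson's r among 14486 genes, given as a description over samples that share arrays and pools. VAMP8, a vesicle fusion protein of secretory cells, TFF2 and GDF15, a secreted stress-response factor, each reached 0.995, and the integrin gene ITGB4 and the muscarinic receptor gene CHRM3 reached 0.994. With the mean of each dye removed first, TFF2 came first at 0.998, followed by FZD4 and SCARA5 at 0.997 and KCNJ2 and GALC at 0.995. TFF3 as a gene reached 0.948 and stood at place 252. TFF2 was selected together with TFF1 on samples that are among the 12, so its high r is no separate finding. The levels of TFF1 form 2 sets, with and without stable PIM1, so r mainly reflects that split. The size of the differences varied widely among these genes. VAMP8 differed by 2.09 and 2.47 in the comparisons of stable PIM1 under WT and MM NFATC1, and CHRM3 by 1.96 and 1.94. GDF15 differed by 1.39 and 1.74 and ITGB4 by 0.81 and 0.92. All were smaller than the differences of TFF1 and TFF2 in the main fit. CHRM3 was dim without stable PIM1, at 6.66 to 6.91. The processed signal gave it 3.36 and 3.46, more than TFF1 (3.04 and 3.21) and TFF2 (3.03 and 3.31).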

How the data were processed

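Total RNA of 12 PC-3 samples was hybridized to 6 Agilent 4x44K arrays in 2 colours. Per the methods, RNA was taken on the day after transient transfection (the study's results text gives a later time) and spots were read with Feature Extraction 11.0.1.1. The authors deposited raw intensity (median signal and background) and a processed signal (intensity after background subtraction and dye normalization) for each spot. A second table deposited by the authors holds log2 values, and these lay within 0.0844 of the quantile-normalized log2 median signal. The submitters' processing notes name limma. The mean signal was not in the files analysed here, so the median signal was used.

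Each sample was read from its own dye channel. Spots flagged as outliers were left out, spots of a probe were averaged, and a probe was kept where 2 or more of the 12 channels exceeded the 90th percentile of the 153 negative controls (31486 of 34127). Log2 intensities were quantile normalized without background subtraction, and a gene took the median of its probes (25473 genes, of which 18859 had a symbol). Symbols came from RefSeq transcripts of GRCh38.p14, which named 26377 probes, and other probes went by their transcript name. Group means of all 12 samples were fitted in limma 3.58.1 (R 4.3.3) with empirical Bayes moderation. Two-sided p-values were adjusted by Benjamini-Hochberg within a comparison, over all genes or all probes. Precision is limited by the number of arrays. A fold against a group that was not well above background on any array is given as a lower bound. It uses the higher of the measured level and the lowest signal well above background. At A_33_P3334305 the control mean of 6.47 lay above that lowest signal, 6.31, so the 1.39-fold there equals the measured fold.

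The trefoil genes, gene lists and tests were chosen with earlier results of these data known, so the list counts are descriptions. Named list members were those called or well above background in every sample, and CXCR4, MUC5B, GREB1, CDX2, CD3E, DCN, LUM and KLK3 are named beside them for their levels. The fit was checked on simulated data. The alternatives were normexp background correction, loess with Aquantile, median centring, the deposited values or the processed signal as input, no filter or one in all 12 channels, outlier spots kept, the brightest probe per gene, the slide or the array as a block, only the groups compared, the first 33 rows left out of 1 channel, and each sample left out in turn. No sequence of a trefoil probe, promoter or protein was used here.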

Additional observations from a re-analysis of the deposited data

Results flagged for a closer look

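The effect of stable PIM1 on SPDEF differed between the NFATC1 forms by the interaction test: it was larger under WT than under MM NFATC1 by 0.93 on the log2 scale (SE 0.117, limma, adjusted p = 0.00874), just below the fold threshold of 1. The form and the amount of NFATC1 cannot be told apart in this test.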

How the results depend on the processing

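The increases of TFF1 and TFF2 with stable PIM1 kept their direction and their call under all 17 alternatives in both comparisons. TFF1 ran from 2.59 to 3.04 under WT and from 2.96 to 3.21 under MM NFATC1, TFF2 from 2.68 to 3.04 and from 3.13 to 3.31, and the highest adjusted p was 0.00333 (limma). With single samples left out, TFF1 lay between 2.81 and 2.88 and between 3.04 and 3.09. The brightest TFF3 probe, A_23_P393099, was likewise called under all 17. With the slide as a replicate block the difference of TFF1 under WT NFATC1 stayed at 2.85 and the block changed no call of a trefoil gene, while 326 and 227 genes were called in place of 323 and 222. Samples of the same number deviated together most where they shared an array. Correlations there were 0.834 (control and PIM1), 0.497 (WT and MM) and 0.345 (PIM1 + WT and PIM1 + MM), against 0.0508 to 0.172 in other pairs. The main fit treated samples as unpaired and leaves this sharing out. With the array as a random block, the adjusted p of TFF2 was 0.0024 for WT against MM cells (limma), in place of 0.02. For the interaction it was 0.0234 in place of 0.0973.

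TFF3 as a gene passed the fold threshold with the processed signal (1.58 under WT and 1.5 under MM NFATC1, the same values as probe A_33_P3334305) and with the probe of the highest mean (1.09 and 1.34). Probe A_24_P289208 then differed by -0.00206 under MM NFATC1 with the processed signal. For WT against MM cells TFF3 turned to -0.13 with normexp and -0.43 with median centring. For PIM1 + WT against PIM1 + MM cells TFF1 turned to 0.14 with median centring and TFF3 to 0.14 with the processed signal, and with samples left out TFF3 ran from -0.21 to 0.0911. The interaction of TFF3 turned to 0.13 with normexp, 0.26 with median centring and 0.0798 with the processed signal, and ran from -0.26 to 0.0408 with samples left out. Both positive values came without PIM1 + MM replicate 2. The cause of these turns was not tested.

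The PIM1 minus control differences were 2.05, 2.01 and 0.84 for TFF1, TFF2 and TFF3 with median centring, 2.86 and 1.74 for TFF2 and TFF3 with the processed signal, and 0.71 and 0.96 for TFF3 with the stricter filter and the probe of the highest mean. The number of genes called under MM NFATC1 was 102 with median centring and 817 with the processed signal, and 1040 were called under WT NFATC1 with the latter. Leaving out samples moved the count under MM NFATC1 between 220 and 360, the highest without PIM1 + MM replicate 1. With median centring the median of all genes was 0.136 in PIM1 + WT minus WT and 0.128 in PIM1 minus control, against -0.004 and 0.009 with quantile normalization. Low signal over background limits what probes A_33_P3334305 and A_24_P289208 can show.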
